A study of Mus musculus with 6 samples.

Results

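The proteasome genes of mouse embryonic stem cells (ESCs) were followed in wild type and Hnrnpf knockout cells, in self-renewal and during early differentiation. Members were all rows of the deposited expression table whose symbol is Psma, Psmb, Psmc or Psmd followed by a number, without the immunoproteasome genes Psmb8, Psmb9 and Psmb10, and with a mean of at least 1 FPKM (fragments per kilobase of transcript, scaled to sequencing depth). Of 25170 symbols, 39 matched the pattern. The 3 immunoproteasome genes were set aside, Psmb11 was listed at 0 in every library, and 35 members remained, 15 of the core and 20 of the regulatory particle. The lowest member, Psma8, had a mean of 7.48 FPKM, so no member lay near the limit of 1 FPKM.

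The samples were E14 cells, an established mouse ESC line, grown in serum medium with leukemia inhibitory factor (LIF), the cytokine that keeps mouse ESCs undifferentiated, or without it for 4 days. There was 1 wild type library in each medium (genotype WT) and 2 Hnrnpf KO libraries in each medium, made in the same line and numbered 1 and 2. Which part of Hnrnpf was deleted is not stated, nor whether libraries are separate clones or cultures, nor whether number 1 is a single clone across media. The p-values therefore set each difference only against the spread of these libraries, and that spread may be technical.

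The proteasome is the large protease that degrades proteins tagged with ubiquitin. Its core particle is a barrel of alpha rings, which gate the entrance, and beta rings, of which Psmb5, Psmb6 and Psmb7 carry the proteolytic sites. The regulatory particle caps the barrel: a ring of ATPases (Psmc genes) unfolds the substrate, and non-ATPase subunits (most Psmd genes) bind ubiquitin and remove it. Each subunit of a finished particle is needed in equal amounts, and ESCs are known for high proteasome activity. Psmd5, Psmd9 and Psmd10 match the symbol pattern but encode assembly chaperones of the ATPase ring, and Psma8 encodes the alpha subunit of the germ cell proteasome.

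Hnrnpf stood at 342 FPKM in wild type cells with LIF and 335 without it, against 98.7 and 95.2 FPKM in knockout number 1 and 37.1 and 27.8 FPKM in number 2, so its RNA was lower but still detected in every knockout library. The ESC markers Pou5f1, Sox2, Nanog, Zfp42 and Esrrb lay between 33.1 and 1145.1 FPKM across all libraries, and all 5 fell on LIF removal. The 7 fibroblast (feeder cell) markers, mostly Thy1, summed to 3.33 and 5.96 FPKM in the wild type libraries and to 5.6 to 8.36 FPKM in the knockout libraries, with Lum at 0 in 5 libraries. Their part in the results was not tested. The FPKM of all genes summed to between 456155 and 556318 per library, and the number of reads behind a value is unknown. In these bulk samples, fewer cells of a type and less RNA per cell cannot be told apart. Genes of chromosome 11 as a whole were higher in the knockout libraries, which bears on several members and is given beside them.

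Proteasome subunit genes were abundant but far from equal in level. In wild type cells with LIF the 35 genes summed to 5890.3 FPKM, or 1.06% of the library, with 3411.2 FPKM from the core and 2479.1 from the regulatory particle. The median of the mean FPKM over the 6 libraries was 238 for core members and 144 for regulatory members. Within the core, the beta genes were the highest, with a median of 314 FPKM against 204 for the alpha genes. The ATPase genes were the most even group: from Psmc6 at 72.2 FPKM to Psmc5 at 216 they spanned 2.99-fold, while the beta genes spanned 11.8-fold. These means include 4 knockout libraries. In both wild type libraries Psmc4 (187 FPKM with LIF and 189.8 without) lay above Psmc5 (165 and 144).

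The highest members by mean were all beta genes: Psmb3 with a mean of 543 FPKM, Psmb4 with 401 and Psmb6 with 347. That mean covers 4 knockout and 2 wild type libraries. In wild type cells Psmb6 stood at 259.6 FPKM with LIF and 221 without it, below Psmb1 (344 and 297) and Psmb7 (326 and 327). It also lay below the alpha gene Psma6 (303 and 272). Without LIF, wild type Psmb4 (424 FPKM) was above Psmb3 (368). Psmb5, which encodes the chymotrypsin-like site, was the lowest beta gene with 46.2 FPKM, below Psmb6 (caspase-like site) and Psmb7 (trypsin-like site, 314 FPKM). The lowest members of all were Psma8 (7.48 FPKM) and the chaperone genes Psmd9 (11.6 FPKM) and Psmd10 (18.0 FPKM). Psma3, an ordinary alpha subunit, had 23.8 FPKM. For 12 of the 35 members, another gene model of the mouse annotation held a stretch of at least 300 bases at 90% identity or more, as processed pseudogenes do. Psmb3 had 7 such copies, Psma3 4, and Psma2, Psma5, Psmb5, Psmc1, Psmd2 and Psmd11 2 each. Psma4, Psmb1, Psmb6 and Psmd14 had 1 each. The levels of all these genes are therefore uncertain. Members with such copies had a median of 167 FPKM against 166 for the others. These are different genes, so the medians do not show how copies affect the level of any gene.

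**Figure D1:**
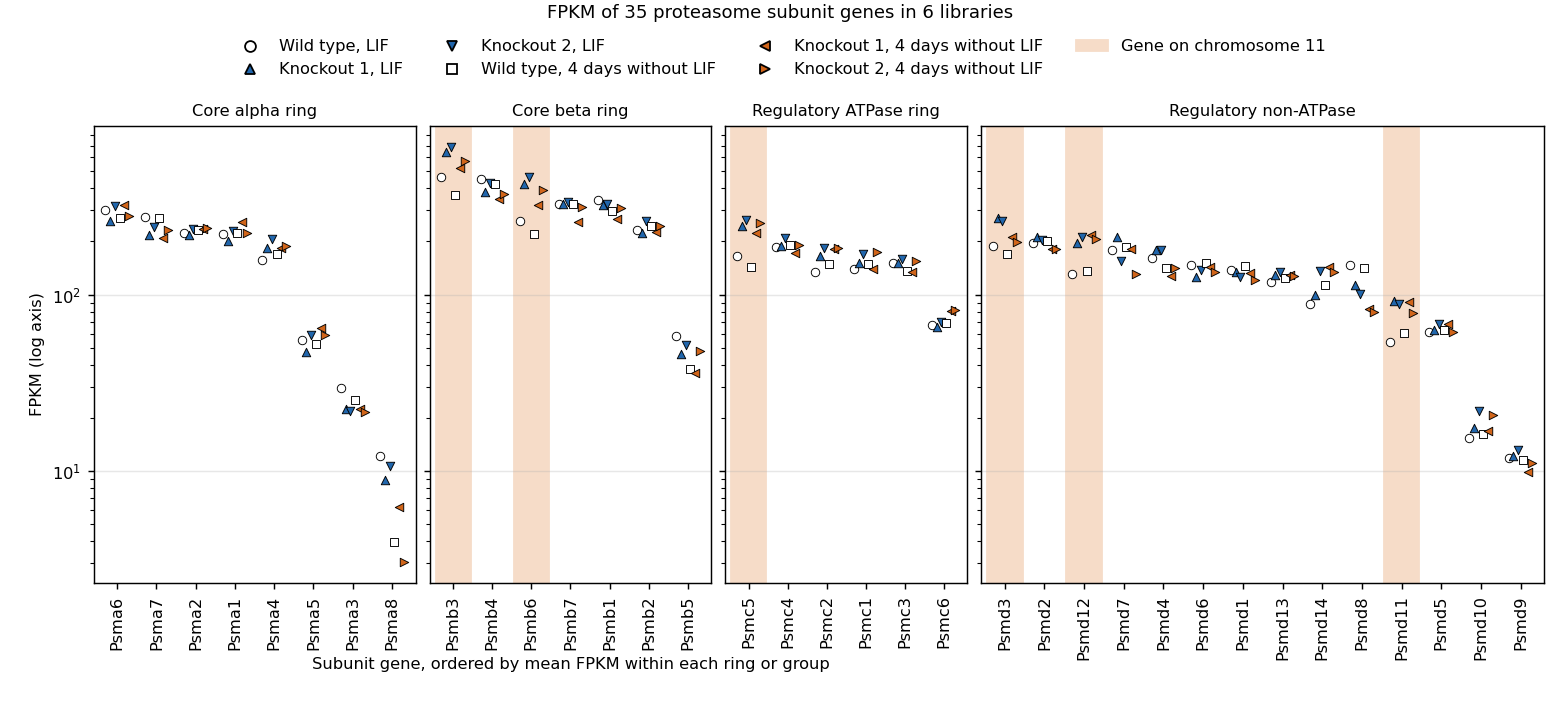
FPKM (log axis) of the 35 subunit genes in the 6 libraries, with 1 point per library and no error bar; columns are genes, grouped by ring or group and ordered by mean, and shaded columns are genes on chromosome 11. In the shaded columns both wild type points (open) lie under all 4 knockout points, and Psma8 at the right of the alpha genes is the lowest gene.

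Knockout against wild type over both media compared 4 libraries with 2 and asked which subunit genes differ by Hnrnpf genotype. Of the 35 members, 6 rose in knockout cells, 1 fell and 28 did not pass the threshold (limma, adjusted p under 0.05 over 11785 genes). Of all genes tested, 5.79% of tested genes passed as higher and 4.67% as lower. The 6 members that rose, Psmb3, Psmb6, Psmc5, Psmd3, Psmd11 and Psmd12, are the 6 members that lie on chromosome 11. None of the 29 members on other chromosomes rose, except Psmc2 under quantile normalization, scaling to genes outside chromosome 11 or a block for the knockout number, and Psmd8 on chromosome 7 fell. No member passed when either wild type library was left out, since only 1 medium then compares the genotypes, and none passed with all 25170 rows kept in the fit (3 passed without the rows at 0 in every library). Differences are on the log2(FPKM + 1) scale throughout.

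Psmb6 (chromosome 11, 70525367 to 70527858, build mm10), a catalytic beta subunit, showed the largest rise. With LIF it stood at 259.6 FPKM in wild type cells and at 426 and 462 in knockout libraries 1 and 2. Without LIF it stood at 221 against 323 and 391 without LIF. Every knockout value lay above both wild type values, and the log2 difference was 0.73 (SE 0.11, limma adjusted p = 0.0112). Psmb3 (chromosome 11, 97703399 to 97713500), a structural beta subunit, stood at 467 FPKM against 640.0 and 686 with LIF, and at 368 against 525 and 572 without it. The groups did not overlap, and the difference was 0.54 (SE 0.09, adjusted p = 0.0165). The other 5 beta genes lay between -0.19 and 0.00, none past the threshold.

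In the ATPase ring Psmc5 (chromosome 11, 106256154 to 106263120) rose. With LIF its FPKM was 165 in wild type and 246 and 265 in knockout cells, and 144 against 223 and 253 without LIF. The log2 difference was 0.67 (SE 0.10, adjusted p = 0.0111), with knockout above wild type in each medium by between 1.5-fold and 1.76-fold. Psmc2, another ATPase, encoded on chromosome 5, had the next largest difference and did not pass (0.33, SE 0.10, adjusted p = 0.0655). It stood at 134 FPKM against 165 and 183 with LIF, and at 149 against 180.4 and 183 without it. The other ATPase genes differed by 0.01 to 0.13.

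The lid of the regulatory particle, which carries the deubiquitinating enzyme, has 3 genes on chromosome 11. Psmd12 (107479484 to 107504362), a scaffold subunit, stood with LIF at 130.5 FPKM in wild type and 197 and 213 in knockout cells, and at 136 against 218 and 206 without LIF. It was the most even of the rises across knockout libraries, between 1.51-fold and 1.63-fold over the wild type library of the same medium, with a log2 difference of 0.64 (SE 0.09, adjusted p = 0.0111). Psmd11 (80428615 to 80473248), another scaffold subunit, stood at 54.0 FPKM against 92.1 and 88.9, and at 60.5 against 90.8 and 78.8. Its groups did not overlap either, and the difference was 0.61 (SE 0.11, adjusted p = 0.0190). Psmd3 (98682554 to 98695979) stood at 188 FPKM against 270.2 and 262, and at 169 against 213 and 199. This was the smallest of the 6 rises (0.39, SE 0.10, adjusted p = 0.0428), with a smaller distance between the groups without LIF. Psmd3 did not pass when any 1 library was left out, and Psmd11 did not pass without knockout library 2 with LIF.

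Psmd8 (chromosome 7, 29174188 to 29180701), a lid subunit, fell. With LIF its FPKM was 147 in wild type and 113 and 100.2 in knockout cells, and without LIF it was 140.5 against 82.7 and 80.0. The groups did not overlap. Knockout values were between 0.569 and 0.77 times the wild type value of the same medium, and the log2 difference was -0.62 (SE 0.11, limma adjusted p = 0.0185). The 10 tested genes nearest to Psmd8, all within 0.18 Mb, had a median difference of -0.32, with 2 of them above 0. The interval of the Psmd8 difference in the limma fit ran from -0.89 to -0.36. That median has no interval of its own, so whether Psmd8 fell further than its neighbours was not tested. The values of single neighbours are not given here, and the part of that stretch in the result was not tested.

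The alpha ring has no gene on chromosome 11, and none of its 8 genes passed (-0.30 to 0.23, median 0.03). Psma7 (-0.28, SE 0.10, adjusted p = 0.111) and Psma3 (-0.30, SE 0.11, adjusted p = 0.142) were lower in all 4 knockout libraries than in both wild type libraries, and Psma4 (0.23, SE 0.10, adjusted p = 0.189) was higher. Among the lid genes elsewhere, Psmd14, which encodes the deubiquitinating enzyme, stood at 88.6 FPKM against 99.6 and 136 with LIF and at 113 against 143 and 135 without it (0.35, SE 0.13, adjusted p = 0.140). Its wild type value without LIF exceeded the lowest knockout value, so the groups overlapped. For all 28 members that did not pass, the 95% interval of the difference lay within a log2 of 1 in either direction, and for 21 it lay within 0.5.

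All 4 knockout libraries lay above both wild type libraries for 10 members, the 6 on chromosome 11 and 4 others (Psma4, Psmc2, Psmd10 and Psmd13), where 11.9% of tested genes did so. For 5 members (Psma3, Psma7, Psmd1, Psmd6 and Psmd8) all 4 lay below both, against 13.0% of tested genes.

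**Figure D2:**
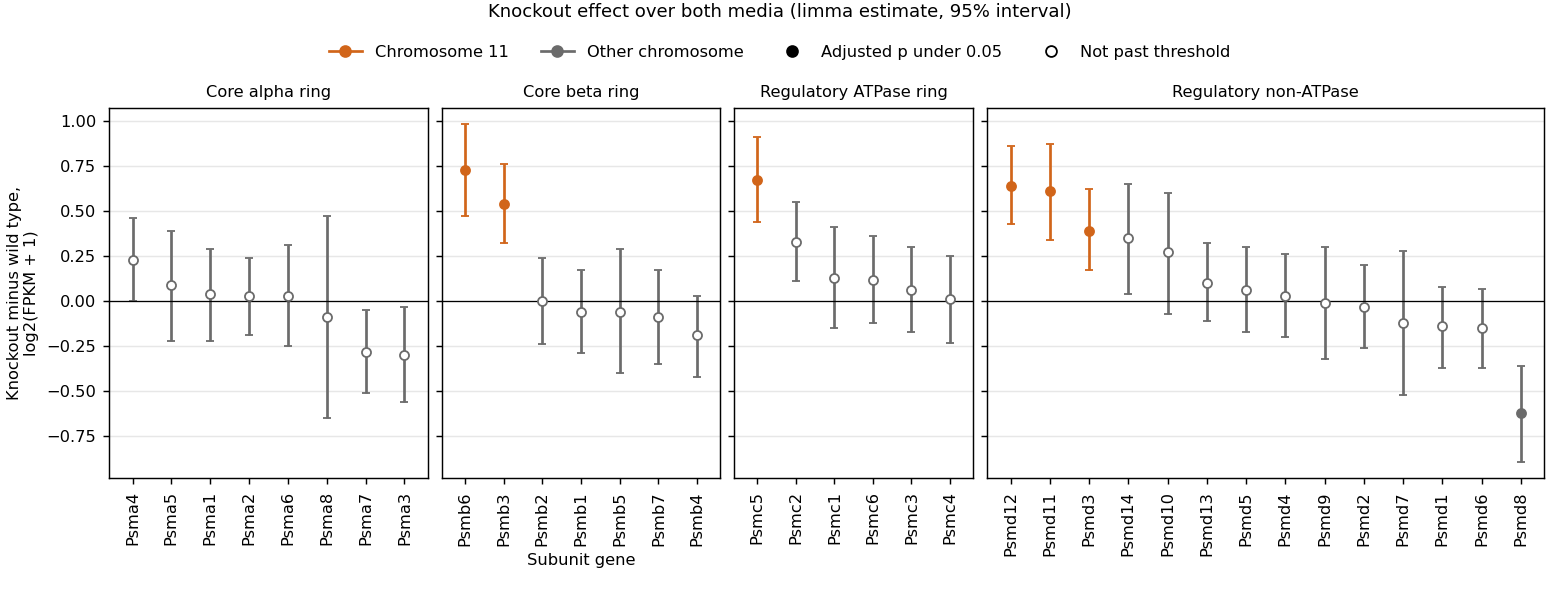
Knockout minus wild type over both media on the log2(FPKM + 1) scale for the 35 subunit genes, by ring or group; points are limma estimates from 4 knockout and 2 wild type libraries and bars are 95% intervals. Filled points passed the threshold: the 6 orange genes of chromosome 11 above 0, and Psmd8 at -0.62.

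The members differed by chromosome. The median difference was 0.62 for the 6 members on chromosome 11 and 0.01 for the 29 elsewhere. Over all genes tested it was 0.46 for the 998 on chromosome 11 and -0.06 for those on other chromosomes, and 36.6% of the former and 2.95% of the latter passed as higher. By particle, the median was 0.00 for the core and 0.08 for the regulatory members. The 10 nearest tested genes around each chromosome 11 member had medians from 0.39 (Psmd3) to 0.58 (Psmc5), and at least 9 of 10 were above 0 in each case. Chromosome 11 genes as a whole were higher in each of the 4 knockout libraries than in the wild type library of the same medium. A difference does not show which genotype departed from the usual level. This shift and the Hnrnpf knockout cannot be told apart here.

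The same division was seen in every knockout library taken alone. Against the wild type library of the same medium, the median of the 6 chromosome 11 members was 0.58 and 0.69 with LIF in knockout libraries 1 and 2, and 0.56 and 0.62 without LIF. All 6 lay above wild type in each of the 4 libraries, the smallest difference being 0.24. The median of the other 29 members was -0.03 and 0.06 with LIF and -0.06 and 0.01 without it, with between 12 and 19 of them above wild type.

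The ratio of the chromosome 11 members to the other members within a library does not depend on scaling between libraries. The 6 chromosome 11 genes made up 21.5% and 19.4% of all subunit FPKM in the wild type libraries with and without LIF. In the knockout libraries they made up 29.5% and 29.2% with LIF, and 26.7% and 27.6% without. With LIF their summed level was 1263.9 FPKM in wild type and 1872.2 and 1976.1 in knockout cells, while the other 29 genes summed to 4626.4 against 4478.0 and 4785.5. The ratio of core to regulatory FPKM, 1.38 and 1.27 in the wild type libraries, lay between 1.23 and 1.34 in the knockout libraries and overlapped with them.

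**Figure D3:**
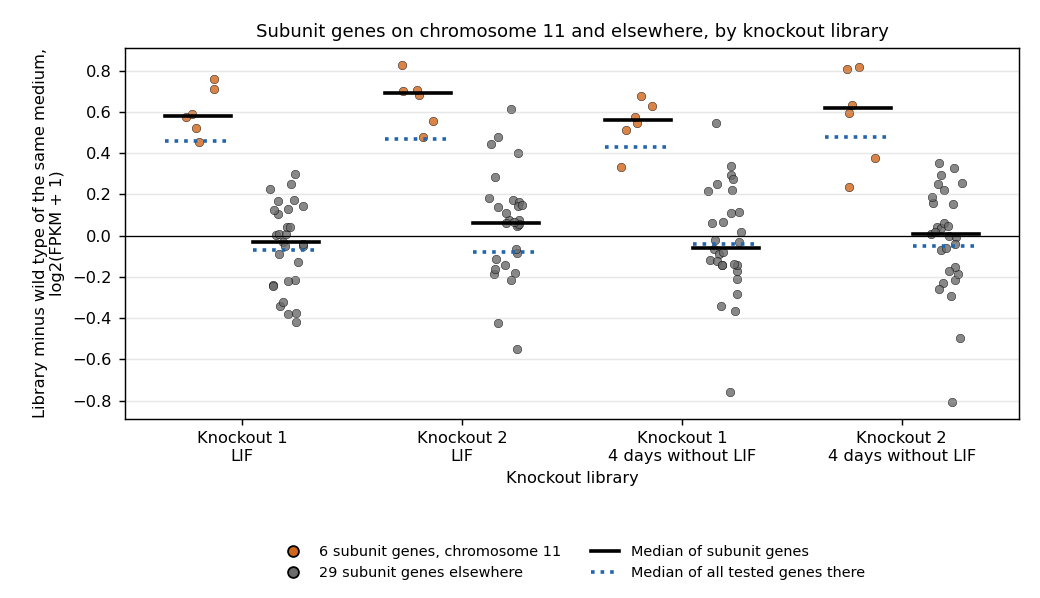
Difference of each knockout library from the wild type library of the same medium, log2(FPKM + 1), with 1 point per subunit gene; black bars are medians of the subunit genes and dotted blue bars are medians of all tested genes on chromosome 11 or elsewhere. The orange points of chromosome 11 lie above 0 in all 4 libraries, with medians from 0.56 to 0.69, while the grey points scatter around 0.

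Promoter stretches of 4 of these genes are shown because they belong to members that moved together, or, for Psmd8, the other way. They are the bases before the first annotated start, from RefSeq promoters of build GRCm38.p6 (300 bases, from 250 before the start), which held 28 of the 35 members. Bases in capitals match the letters TGACNNNGC, the core of the antioxidant response element bound by the proteasome regulator Nfe2l1, or CCAAT, the box bound by NF-Y, searched on both strands with no overlap between the motifs shown. Psmb3 is chr11:97703184-97703398, Psmb6 is chr11:70525107-70525323 and Psmd12 is chr11:107479278-107479483, all on the plus strand, and Psmd8 is chr7:29180702-29180923 on the minus strand.
Psmb3: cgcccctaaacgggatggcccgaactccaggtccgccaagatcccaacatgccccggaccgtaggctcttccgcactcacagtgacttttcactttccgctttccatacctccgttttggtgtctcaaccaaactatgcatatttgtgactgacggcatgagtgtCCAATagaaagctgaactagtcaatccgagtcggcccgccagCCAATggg
Psmb6: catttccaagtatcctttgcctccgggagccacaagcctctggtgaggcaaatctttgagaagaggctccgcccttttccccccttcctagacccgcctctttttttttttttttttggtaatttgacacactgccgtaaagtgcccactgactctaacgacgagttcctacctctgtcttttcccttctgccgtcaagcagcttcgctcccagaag
Psmd12: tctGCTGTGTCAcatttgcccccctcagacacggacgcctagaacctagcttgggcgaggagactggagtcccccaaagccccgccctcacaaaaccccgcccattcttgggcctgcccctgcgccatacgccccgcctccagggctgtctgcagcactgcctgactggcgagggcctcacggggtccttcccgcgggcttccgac
Psmd8: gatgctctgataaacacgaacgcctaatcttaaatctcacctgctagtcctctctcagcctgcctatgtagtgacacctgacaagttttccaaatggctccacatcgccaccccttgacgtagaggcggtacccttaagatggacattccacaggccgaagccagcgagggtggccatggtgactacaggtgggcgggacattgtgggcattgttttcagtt
Psmb3 holds CCAAT at 85 and 43 bases before its RefSeq start, and Psmd12 holds the reverse match GCTGTGTCA near the far end of the window. The match of Psmb6, TGACGGAGC, lies 9 bases before the start used in the promoter table but after an earlier annotated start, and is not part of the stretch shown. The Psmd8 stretch holds neither motif. Over the full windows, 5 of 30 member promoters held the antioxidant letters (16.7%; 12.4% of 32851 promoters) and 11 held CCAAT (36.7%; 37.4% of all). Members outside chromosome 11 with the antioxidant letters were Psmb5, Psmc6 and Psmd9, which differed by -0.06, 0.12 and -0.01 in knockout cells. A match is a run of letters, not a bound site.

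With LIF alone, 2 knockout libraries were set against 1 wild type library, and no member passed the threshold (lowest adjusted p = 0.113, limma), where 0.0424% of tested genes did. The differences of the 6 members on chromosome 11 ran from 0.50 to 0.77. Psmb6 (0.77), Psmd11 (0.73) and Psmd12 (0.65) had the lowest p. After LIF removal no member passed either (lowest adjusted p = 0.141), where 0.0594% of tested genes did. Psmd8 (-0.78), Psmc5 (0.72) and Psmd12 (0.64) had the lowest p, and the 6 members on chromosome 11 ran from 0.29 to 0.72. The median of the chromosome 11 members was 0.64 with LIF and 0.61 without, and that of the others 0.02 and 0.03. Spread in both fits was estimated from knockout libraries only, with each single wild type library assumed to vary as they do.

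LIF removal over both genotypes, 3 libraries against 3, asked which subunit genes change as the cells leave self-renewal. Few did: 3 of 35 members fell and none rose (limma, adjusted p under 0.05), where 12.7% of tested genes passed as lower and 8.73% as higher. The median of all members was -0.05, against -0.03 over all tested genes. The members that fell were Psma8, Psmd4 and Psmb3. All 3 libraries without LIF lay below all 3 with LIF for 4 members (Psma8, Psmb1, Psmd4 and Psmd9), and for none did they lie above, where 16.8% and 14.9% of tested genes did so.

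Psma8 (chromosome 18, 14706151 to 14762301), the germ cell alpha subunit, fell most. It stood at 12.2 FPKM in wild type and 8.87 and 10.6 in knockout cells with LIF, and at 3.95, 6.22 and 3.04 FPKM without LIF. The difference was -1.13 (SE 0.23, limma adjusted p = 0.0129). With LIF the wild type value was above both knockout values and without LIF it lay between them (knockout against wild type -0.09, limma adjusted p = 0.846). Its call was lost when either wild type library was left out. Psma7, which encodes the ordinary subunit at the same place in the ring, had between 210.1 and 276 FPKM in all libraries.

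Psmd4, a ubiquitin receptor of the regulatory particle on chromosome 3, stood at 162 FPKM in wild type and 179 in both knockout libraries with LIF. Without LIF it stood at 141 in wild type and at 128 and 140.5 in knockout cells, a difference of -0.34 (SE 0.10, limma adjusted p = 0.0397). Psmb3 was lower without LIF in each genotype (-0.30, SE 0.09, adjusted p = 0.0496), on top of its difference between genotypes. Psmd3 (-0.30, adjusted p = 0.0561) and Psmb6 (-0.29, adjusted p = 0.0819) had like values and did not pass. The calls of Psmd4 and Psmb3 were lost when any 1 library was left out, and only Psma8 passed under quantile normalization, where Psmb3 was at -0.09, or median ratio scaling. With all 25170 rows kept, none of the 3 passed.

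In knockout cells alone no member passed (lowest adjusted p = 0.0844, limma), where 6.92% of tested genes did (3.05% higher, 3.88% lower). An unadjusted limma p under 0.05 was reached by 4 of 35 members and by 3239 of 11785 tested genes. The lowest p belonged to Psmd4 (-0.41), Psma8 (-0.99) and Psmd3 (-0.37). With wild type cells there was 1 library on each side and no test. There, 2 members moved by a log2 of at least 0.5, Psma8 (-1.42) and Psmb5 (-0.60), where 27.3% of tested genes did. Psmb5 went from 57.9 to 37.8 FPKM in wild type cells, and from 46.1 and 51.6 to 36.1 and 47.7 FPKM in knockout cells, where the groups overlapped. The test of the difference between the genotypes' responses gave no member and none of the 11785 genes tested an adjusted p under 0.05 (limma). An unadjusted limma p under 0.05 was reached by 340 genes and no member. For the members this difference ranged from -0.32 (Psmd8) to 0.43 (Psma8), and for 2 of them only was the 95% interval within 0.5.

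**Figure D4:**
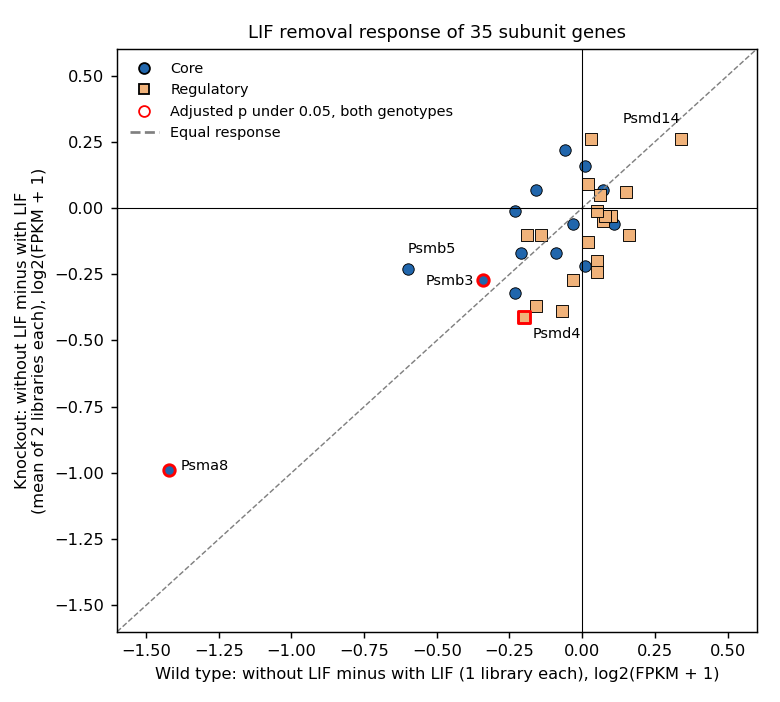
LIF removal response of the 35 subunit genes on the log2(FPKM + 1) scale, wild type (1 library in each medium, x axis) against knockout (means of 2 libraries in each medium, y axis); the dashed line marks equal responses and red outlines mark genes past the threshold over both genotypes. Psma8 lies at -1.42 and -0.99, apart from the others, which cluster near 0.

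Knockout number 2 against number 1, taken as the same line in both media, differed in no member (limma, lowest adjusted p = 0.121, Psmd7), where 0.976% of tested genes passed. At an unadjusted p under 0.05 there was 1 member of 35, Psmd7, where 1619 of 11785 tested genes reached it. Psmd7, a lid subunit on chromosome 8, stood at 213 FPKM in knockout library 1 and 154 in library 2 with LIF, and at 181 and 131 without, against 179 and 185 in wild type cells. Library 2 was thus below wild type in both media, while library 1 was above it with LIF and near it without (number 2 minus number 1 -0.46, SE 0.12). Whether chromosome 8 genes as a whole differ between the knockout numbers was not tested. The median of the 6 chromosome 11 members was 0.06 in this comparison.

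Other genes of the pathway were drawn from lists of activators, assembly factors, regulators and ubiquitin carriers. Together with associated proteins and immunoproteasome genes, 38 were tested. Of these, 7 rose in knockout cells over both media (18.4%) and none fell, where 10.5% of all tested genes passed, 5.79% as higher. Of 5 activators and inhibitors, 2 rose in knockout cells over both media and none fell (median 0.39), both on chromosome 11. They were Psme3 (0.52, SE 0.10, limma adjusted p = 0.0216), the nuclear activator, and Psme4 (0.44, adjusted p = 0.0387), an activator that acts without ubiquitin. Psme3 went from 120.1 FPKM to 192 ± 6.11 (SD, n = 2) with LIF and from 141 to 183 ± 0.733 without. None of 5 assembly chaperones passed, and Pomp, the maturation factor of the core, lay between 204 and 258 FPKM in all libraries (-0.02, adjusted p = 0.935).

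Among 8 regulators, Nfe2l1, the transcription factor that induces proteasome genes when the proteasome is inhibited, was the 1 called gene. It also lies on chromosome 11 and stood with LIF at 96.8 FPKM in wild type and 153 and 143 in knockout cells, and at 76.8 against 92.5 and 114 without (0.51, adjusted p = 0.0343). Ddi2, the protease that activates it, did not pass (0.09, adjusted p = 0.731). Of 6 associated proteins, the proteasome adaptor Ecpas rose (0.74, adjusted p = 0.0279). Of the 11 ubiquitin genes reported, Nploc4 on chromosome 11 rose (0.76, adjusted p = 0.0113). Ubb, a ubiquitin gene on chromosome 11, did not pass (0.40, adjusted p = 0.0856).

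The immunoproteasome genes set aside from the members lay between 0.242 FPKM (Psmb8) and 30.5 FPKM (Psmb10) across the libraries. Psmb8 stood with LIF at 0.242 FPKM in wild type and 3.53 and 6.7 in knockout cells, and without it at 5.08 against 9.2 and 11.9 (1.58, SE 0.33, limma adjusted p = 0.0247). Psmb10 rose as well, from 7.05 FPKM to 22.7 and 21.3 with LIF and from 18.9 to 30.5 and 30.0 without (1.08, SE 0.19, adjusted p = 0.0159). Psmb9 did not pass (0.10, adjusted p = 0.857).

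On LIF removal over both genotypes, 6 of the 38 related genes tested in these lists rose and 5 fell (28.9% in all), where 21.4% of all tested genes passed. Psme4 (0.38), Ecpas (1.02), Txnl1 (0.33), Psmb8 (1.40), Psmb10 (0.73) and Ubqln2 (0.55) rose. Psmg4, an assembly chaperone (-0.56), Adrm1, a ubiquitin receptor (-0.40), Nfe2l1 (-0.46), Ubb (-0.41) and Ubqln4 (-0.35) fell.

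The CCT chaperonin, a ring that folds actin and tubulin, served as another complex whose subunits are needed in equal amounts. Of its 8 genes, 1 rose past the threshold in knockout cells over both media, Cct7 on chromosome 6, and none fell. Of all tested genes, 5.79% passed as higher and 4.67% as lower. The 6 genes other than Cct4 and Cct7 differed by -0.24 to -0.16, with limma adjusted p from 0.141 to 0.333. Cct4 on chromosome 11 stood with LIF at 451 FPKM in wild type and 569 and 546 in knockout cells, and at 359 against 578 and 458 without (0.41, adjusted p = 0.0662). Cct7 on chromosome 6 stood at 257 FPKM against 422 and 381, and at 203 against 306 and 308 (0.62, adjusted p = 0.0112). Whether chromosome 6 genes as a whole differed was not tested. All 4 knockout libraries lay above both wild type libraries for Cct4 and Cct7, where 11.9% of tested genes did so. Cct7 fell on LIF removal (-0.37, adjusted p = 0.0236).

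**Figure D5:**
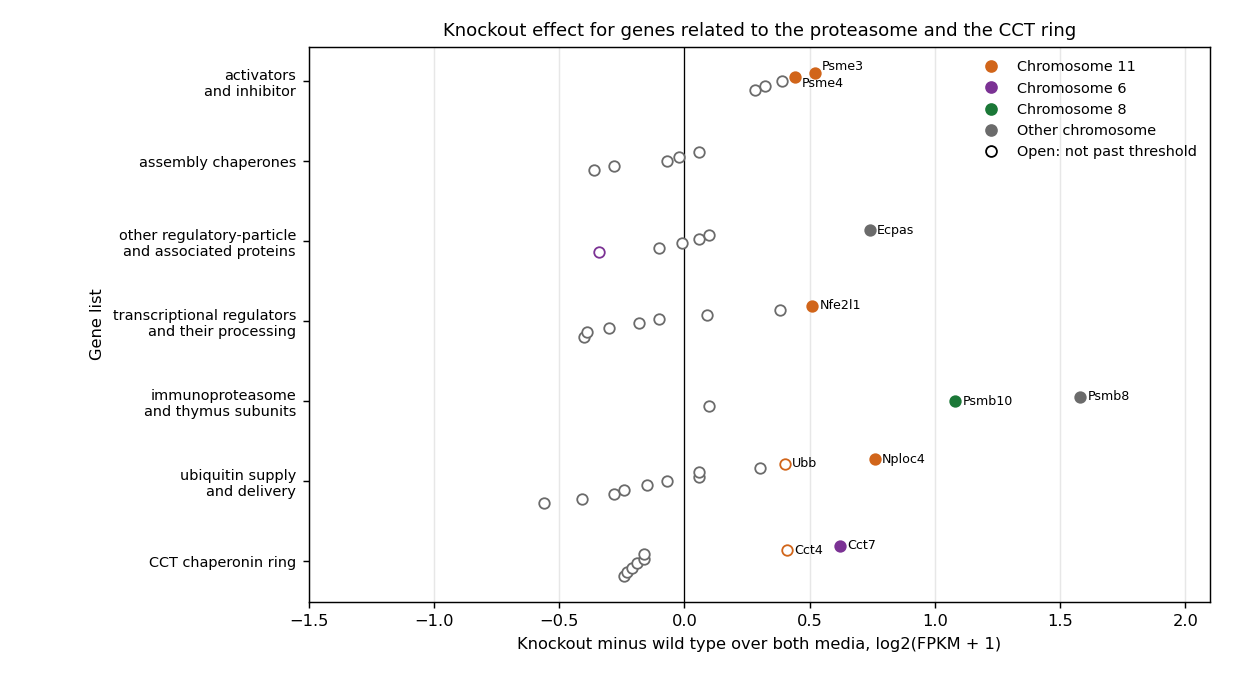
Knockout minus wild type over both media, log2(FPKM + 1), for genes of 7 lists, with 1 point per gene and vertical offsets only to separate points; colours give the chromosome and filled points passed the threshold. The orange genes of chromosome 11 all lie between 0.40 and 0.76, while the grey points of the CCT ring lie between -0.24 and -0.16. Cct7 of that ring, on chromosome 6, lies at 0.62.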

How the data were processed

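RNA-seq of 6 libraries was analysed, as 150 bp paired-end reads per the labels. The authors deposited FPKM per gene symbol. STAR, Cufflinks and build mm10 are named, without versions, per the submitters' processing notes. Read depth is unknown, with annotation and strand setting not given in the sources used here. Values were tested as log2(FPKM + 1), without further scaling, for 11785 genes averaging 1 FPKM or more, using limma 3.58.1 in R 4.3.3 (with its intensity trend), and p-values, all two-sided, were adjusted by Benjamini-Hochberg over all of them, with a threshold of 0.05. Such differences understate changes of low genes. An additive fit of genotype and medium gave effects over all libraries (3 residual degrees of freedom), a fit of 4 groups those within a medium or genotype (2), and a fit with line and medium knockout number 2 against 1.

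Positions came from GENCODE M21 (GRCm38, the same build) and were found for all 35 members. Copies were sought with blastn 2.17.0 among GENCODE transcripts. The fits were tested on simulated data. Described in full are members past the threshold, the 3 with the lowest p where fewer passed, the 3 highest and lowest and those on chromosomes 6, 8 and 11, with related genes that passed. Members and lists were chosen with earlier results of these data known. A gene of the ubiquitin list is not reported here.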

Additional observations from a re-analysis of the deposited data

How the results depend on the processing

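Counts are of members past the threshold. For knockout against wild type over both media, 7 members passed, and the same 7 passed with a pseudocount of 0.1, with a mean of at least 5 FPKM and with median ratio scaling. Without any filter on low values, 25170 genes were tested and 0 members passed. After that result was seen, the fit was repeated without the genes listed at 0 in every library (18091 genes), and 3 members passed (Psmb6, Psmc5 and Psmd12). Leaving out 1 library gave 0 to 6 members. The 0 came from leaving out either wild type library, where only 1 medium still compares the genotypes, and without a knockout library 5 or 6 passed. The median of the chromosome 11 members lay between 0.60 and 0.64 when 1 library was left out, and was 0.70 with quantile normalization or with scaling to genes outside chromosome 11, which was chosen after seeing the data. The median of the other members was then 0.08 in both cases. With that last scaling, 872 genes of the whole table were higher and 377 lower, against 682 and 550. Of all genes, 1232 passed for genotype over both media and 2523 for LIF removal, 25 and 68 with every row kept, 335 and 1827 without the rows at 0, and 2147 and 3516 with the knockout number as a block.

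For LIF removal over both genotypes, 3 members passed. The count was 0 without any filter, and 1 without the genes at 0 in every library, with quantile normalization, with median ratio scaling, without the intensity trend and with scaling to genes outside chromosome 11. Leaving out 1 library gave 0 to 2, among them Psmd14, higher, without knockout library 2 with LIF. In knockout cells alone leaving out 1 library gave 0 or 1, and in wild type cells 1 member in place of 2 moved by at least 0.5 after quantile normalization.

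Knockout numbers are not stated to pair the media. Differences of number 2 from number 1 correlated across media with a Pearson r of 0.366 over genes, which are not replicates. Outside chromosome 8 this correlation was 0.308. With the knockout number as a block, 8 members passed for genotype over both media (Psmc2 with the 7), 4 with LIF and 5 after LIF removal. The replicate block gave 6 members for LIF removal over both genotypes and 3 in knockout cells. The difference between responses gave 0 members with and without it. With every row kept no member passed for that difference either, though other genes of the table did. Read depth is unknown, so no counting error was given.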
